A study of Danio rerio with 6 samples.

Results

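Single deletions of 7 to 12 bp in the targeted stretch of the GFP transgene were described in 6 adult zebrafish. Their members were selected on measured reads. A scar was taken when its alignment string held 1 deletion of 7 to 12 bp and no insertion, when the deleted bases overlapped positions 520 to 570 of the GFP reference, and when it had 10 or more reads in at least 1 library. This left 97 deletions of the 4273 scars that reached 10 reads in a library. Of the fish, all about 1 year old and transgenic for a tandem array of H2A-GFP, 3 had received Cas9 RNA (fish R1 to R3) and 3 Cas9 protein (fish P1 to P3), in each case with a guide RNA against GFP at the zygote stage. Genomic DNA was taken from small dissected parts of the body, and each part was given a barcoded GFP library. The body part behind each barcode was not used here, so the values stand per fish and per library, and no tissue is named. The methods kept only fish that met a limit on unscarred GFP and a limit on the number of scars. There was no uninjected fish among the samples, and the level of these deletions without Cas9 was not measured.

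Cas9 cuts both strands of DNA at a site set by the guide RNA, and the cell rejoins the ends by error-prone repair. Repair by end joining often removes or adds a few bases at the cut, while repair through short repeats on both sides of the break removes one repeat and the bases between them. Once repair has destroyed the target, the same guide can no longer cut there, and the altered sequence is inherited by the daughters of the cell, so that it works as a scar that marks a clone. Injected protein can cut at once, whereas injected RNA must first be translated. A deletion whose length is a multiple of 3 keeps the reading frame of GFP and removes whole codons' worth of bases, and any other length shifts the frame.

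A library was a barcode with at least 1000 reads. The 130 libraries held 2802 to 3198706 reads, and there were 31, 13 and 14 of them in R1 to R3 and 26, 23 and 23 in P1 to P3. Shares are given as percents of scarred reads, which are the reads with any insertion or deletion, and a fish is given the mean over its libraries with the SD over libraries. These libraries contained 1842 to 2187091 scarred reads, so that a scar without a read could still make up as much as 0.163% of the scarred reads of the smallest library, in P1, and 0.000137% of those of the largest. Intervals (95%, Wilson) and such limits cover counting error alone, since reads amplified by PCR are not separate molecules. Libraries of 1 fish can share a body part, and a share cannot tell a larger clone from more scarred transgene copies per cell. Positions count from 1 at the first base of the 720-bp reference. The bases of the reference were not used here. Where equal bases flank a deletion, the aligner can place it at more than 1 position, and how many of the 97 deletions have such alternatives is therefore not known.

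The 97 deletions together made up from 5.16% (P3) to 26.9% (P1) of the scarred reads of a fish, and the amount differed widely between libraries. Their mean share was 20.8% ± 5.56 of the scarred reads in R1, 20.2% ± 8.45 in R2 and 13.2% ± 3.50 in R3. It was 26.9% ± 11.8 in P1, 13.2% ± 9.55 in P2 and 5.16% ± 4.44 in P3. Every library of the Cas9 RNA fish held at least 7.64%. The lowest, median and highest library had 10.3%, 20.2% and 39.5% in R1, 10.7%, 18.3% and 42.2% in R2, and 7.64%, 13.3% and 19.3% in R3. In P1 these values were 7.07%, 26.04% and 66.8%. The lowest single libraries of the series were in P2 and P3, with 0.422%, 11.5% and 46.9% in P2 and 0.220%, 3.81% and 14.8% in P3. The libraries at the bottom of P2 and P3 were well covered. Barcode 24 of P2 had 518781 scarred reads (interval of its share, 0.405% to 0.440%) and barcode 12 of P3 had 1015258 (0.211% to 0.229%).

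The highest library of R3, of P1 and of P3 was led by the same deletion, from position 535 to 545, and those of R1, R2 and P2 by others. It held 9.36% in barcode 11 of R3, 62.5% of 158891 scarred reads in barcode 11 of P1 and 13.5% in barcode 22 of P3. In barcode 17 of R1, the deletion from 535 to 543 held 18.2% and that from 535 to 545 held 13.2%. In barcode 19 of P2, the deletion from 538 to 547 held 25.96%, that from 539 to 548 held 8.91% and that from 537 to 545 held 4.92%. Barcode 9 of R2 had 14.4% from 535 to 544, 10.9% from 539 to 548 and 8.12% from 537 to 545. Thus a single deletion made up nearly all member reads in some libraries and shared them with others elsewhere.

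Injection with RNA or protein was compared with the fish as the unit. The mean share of the 97 deletions was 18.1% ± 4.26 among RNA-injected fish and 15.1% ± 11 among protein-injected fish (SD, n = 3 each), a difference of 2.98 percentage points that was smaller than the SD of either injection (exact permutation test over fish, two-sided, p = 0.70, adjusted over 4 comparisons 0.70). The 3 Cas9 RNA fish lay between the highest and the lowest Cas9 protein fish, P1 and P3. The direction was not stable. Without P3 the difference was -2.00 percentage points, and as a percent of all reads, unscarred GFP included, it was -1.75. In R2, where few reads were scarred (1221515 of 8768335), the members held 2.44% of all reads but 17.5% of all scarred reads. By these counts R2 would not meet the limit on unscarred GFP in the methods, and the reason was not examined. No exact permutation test of 3 fish against 3 can give a two-sided p below 0.10.

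Most member reads came from deletions laid over the same few bases. The starts of the 97 deletions ranged from position 514 to 556 and their ends from 521 to 562, with 31 different starts and 33 different ends. Percents of member reads by position are means over the libraries of a fish. Position 542 was deleted by 40 of the 97, and these held 89.5%, 91.3% and 97.8% of the member reads of R1 to R3 and 98.7%, 91.2% and 95.9% of those of P1 to P3. The whole stretch from 539 to 545 was removed by 16 members, which held from 63.3% of member reads in R1 to 92.9% in P1. Deletions off this stretch were many but scarce in reads. The 30 members that ended before position 539 held between 0.0649% (P1) and 4.06% (R1) of member reads, and the 6 that started after position 545 held at most 0.413%, in P2.

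Starts were concentrated on a few positions. The 16 members that began at position 535, 537 or 539 held 80.3%, 82.3% and 79.4% of member reads in R1 to R3 and 80.98%, 46.8% and 87.7% in P1 to P3. A start at 535 was the most frequent, with a mean of 43.1% ± 16.04 over the 6 fish (SD, n = 6), followed by 537 with 20.7% ± 8.82 and 539 with 12.5% ± 3.77. The starts between them had less, with 2.82% ± 3.93 at 536 and 7.71% ± 12.5 at 538. Fish P2 stood apart, since 32.8% of its member reads began at position 538 while no other fish had over 6.24% there. Among the ends, position 545 led with 49.99% ± 19.2 of member reads over the 6 fish, from 24.4% in R1 to 73.5% in P1. In P2 the end at 547 had more, 43.2% against 31.5% at 545. In R1 ends at 545 and at 546 were about as frequent in the mean over libraries, with 24.4% and 24.7%. With the member reads of R1 pooled they had 18.4% and 35.4%.

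By mean share over the 6 fish, the leading member was the 11-bp deletion from position 535 to 545, which shifts the frame. It had at least 10 reads in each of the 130 libraries. Its mean share was 3.96% ± 2.46 in R1, 6.85% ± 2.29 in R2 and 4.51% ± 2.78 in R3. In P1 it was 14.7% ± 13.1, in P2 1.13% ± 1.44 and in P3 2.07% ± 3.14. Relative to its mean, the spread between libraries was narrower in each Cas9 RNA fish than in any Cas9 protein fish. The lowest, median and highest libraries had 1.12%, 3.40% and 13.2% in R1, 3.33%, 7.0% and 10.04% in R2 and 1.10%, 4.55% and 10.8% in R3. They had 0.561%, 11.2% and 62.5% in P1, 0.0365%, 0.485% and 4.77% in P2, and 0.113%, 1.01% and 13.5% in P3. The narrower relative spread in the Cas9 RNA fish did not hold for the 9-bp deletion from 537 to 545. For that one, the SD over the mean was larger in R1 than in P1 or P3. How many other scars show it was not counted, and the difference in spread between the injections was not tested. The leading deletion was the most abundant member in 9 of 31, 8 of 13 and 10 of 14 libraries of R1 to R3. In P1 it came first in 22 of 26 libraries and in P3 in 14 of 23. It ranked first in none of the 23 libraries of P2.

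Of the other 4 members that end at position 545, one is in frame. The 9-bp deletion from 537 to 545 was found with 10 or more reads in 129 libraries, all except 1 of R1. Its means were 0.777% ± 1.19, 1.56% ± 2.29 and 2.12% ± 0.949 in R1 to R3 and 3.48% ± 2.30, 2.54% ± 3.71 and 1.16% ± 1.40 in P1 to P3. Its highest library was barcode 9 of P2, with 17.4% (interval 17.3% to 17.6%). This deletion thus varied less from fish to fish than the 11-bp deletion did. The 10-bp deletion from 536 to 545 was most common in P1, where it averaged 2.60% ± 1.66 and was found in all 26 libraries, 24 of them above 1%. In R2 it averaged 0.622%, in R1 0.152%, in R3 0.131% and in P2 and P3 0.0155% and 0.00683%. The 7-bp deletion from 539 to 545, the most abundant of its length, averaged between 0.122% (R1) and 0.455% (P2). These means were carried by a few libraries. In P2 the median library had 0.0259% and the highest 5.75%. The 8-bp deletion from 538 to 545 stayed at or below 0.138% in every fish.

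Of the deletions that start at position 535 with other ends, those to 542, 543 and 546 had their highest mean in R1, and that to 544 had its highest in R2. The 12-bp deletion from 535 to 546, in frame and 1 bp longer than the leading member, averaged 4.83% ± 2.61 in R1 and was present in all 31 libraries, from 2.16% to 13.4% with a median of 4.05%. It was the first member in 11 of them. Every other fish had a mean under 1%. It was 0.683% ± 2.11 in R2, 0.141% in R3, 0.00243% in P1, 0.0366% in P2 and 0.194% in P3. In R2 most of it lay in a single library, barcode 12, with 7.68% and 93.4% of the fish's reads of this deletion. The lowest library of R1 was above the highest of R3, P1 and P2, and in R2 and P3 1 library each exceeded it. The 9-bp deletion from 535 to 543, also in frame, was highest in R1 as well, with means of 3.66% ± 3.29, 0.952% ± 0.938 and 0.760% ± 0.977 in R1 to R3 and 0.163%, 0.144% and 0.0710% in P1 to P3. It was more widely spread over the other Cas9 RNA fish, with over 1% in 5 of 13 libraries of R2 and 4 of 14 of R3, and its lowest library in R1, with 0.964%, lay below the highest of R3, with 3.64%. The 10-bp deletion from 535 to 544 averaged 0.0678%, 1.26% and 0.126% in R1 to R3 and 0.120%, 0.430% and 0.0398% in P1 to P3. It was low in most libraries, with medians up to 0.0715%, but reached 14.4% in 1 library of R2 and 7.36% in 1 library of P2.

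By mean share, R1 was led by the deletion from 535 to 546, and P2 too had a leading member of its own. The 10-bp deletion from 538 to 547 averaged 4.49% ± 5.90 there, from 0.0891% to 25.96% with a median of 2.34%, and was the first member in 11 of 23 libraries. In R1 to R3 its means were 0.0791%, 0.366% and 0.829%. In P1 and P3 they were 0.351% and 0.00174%. In R2, R3 and P1 a single library held most of its reads, with 96.6% of them in barcode 14 of R2, 75.9% in barcode 10 of R3 and 92.9% in barcode 24 of P1. The 8-bp deletion from 540 to 547, named here after its values were seen, was first in another 4 libraries of P2 and reached 17.9% in barcode 22, while its median library had 0.186%. It averaged 1.22% in P2 and 0.120% in P3, and at most 0.00355% in R1, R2, R3 and P1. In barcode 22 of P2 it held 96.6% of member reads. In barcodes 23 and 24 of P2, where it was also first, it held 0.112% and 0.129% of scarred reads. A deletion that is low in the median library of a fish can therefore dominate the members in 1 library.

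In R2, the 10-bp deletion from 539 to 548 averaged 3.09% ± 3.76, and in the other fish between 0.210% (P3) and 1.15% (P1). It reached 10.9% in barcode 9 of R2, and was found with at least 10 reads in 124 libraries. The 8-bp deletion from 539 to 546 had the highest mean share of its length over the 6 fish, 0.228%, barely above the 0.225% of the deletion from 540 to 547, which had more reads, 155212 against 58755. It averaged 0.204%, 0.155% and 0.463% in R1 to R3 and 0.00394%, 0.178% and 0.366% in P1 to P3. Its medians were at most 0.0849%, in R3. The 12-bp deletion from 537 to 548, named after its values were seen, was a steady member in P1, with 2.30% ± 1.33 and over 1% in 20 of 26 libraries. Elsewhere it averaged 0.537%, 0.109% and 0.762% in R1 to R3 and 0.196% and 0.107% in P2 and P3. In R3, 74.4% of its reads came from barcode 14.

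The 6 lengths were not equally common. There were 17 members of 7 bp, 22 of 8 bp, 16 of 9 bp, 13 of 10 bp, 13 of 11 bp and 16 of 12 bp. The lengths with most members held the fewest reads. Averaged over the fish, members of 7 bp made up 0.618% of scarred reads and those of 8 bp 0.955%. Members of 9, 10, 11 and 12 bp made up 3.64%, 3.51%, 5.88% and 1.99%. The order of lengths changed from fish to fish. In R1 the in-frame lengths came first, with 6.73% ± 4.41 for 9 bp and 6.21% ± 2.76 for 12 bp. In R2, R3, P1 and P3 11 bp was first, with 7.51% ± 2.58, 4.79% ± 2.77, 14.8% ± 13.2 and 2.25% ± 3.16. In P2 10 bp was first, with 5.70% ± 7.37. The read-weighted mean length was 10.2 bp ± 0.0942 among RNA-injected fish and 9.86 bp ± 0.551 among protein-injected fish (SD, n = 3 each; exact permutation test over fish, two-sided, p = 0.40, adjusted over 4 comparisons 0.70). All 3 Cas9 RNA fish, with 10.3, 10.1 and 10.1 bp, lay between P1 with 10.5 bp and P3 with 9.70 bp.

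Deletions of 9 or 12 bp, which keep the frame, numbered 32 of the 97 (32.99%). Their part of the member reads differed between fish. It was 61.6% ± 14.7 in R1, 20.1% ± 19.2 in R2 and 35.2% ± 15.3 in R3. It was 28.4% ± 12.05 in P1, 26.2% ± 20.2 in P2 and 33.4% ± 28.8 in P3. In R1, 25 of 31 libraries had most of their member reads in frame, with a range from 28.02% to 87.3%, and the deletions from 535 to 546 and from 535 to 543 held 34.3% and 20.4% of all its member reads pooled. Only 1 library of R2, 2 of R3, 1 of P1, 3 of P2 and 6 of P3 were above 50%. Single libraries went from nearly none to nearly all in frame, from 0.936% to 79.9% in P2 and from 1.37% to 95.9% in P3. Barcode 8 of P3, the highest, owed it to the 9-bp deletion from 537 to 545. The mean was 38.9% ± 21.01 among RNA-injected fish and 29.3% ± 3.69 among protein-injected fish (SD, n = 3 each; exact permutation test over fish, two-sided, p = 0.60, adjusted over 4 comparisons 0.70). The difference of 9.65 percentage points rested on R1, without which it was -1.66.

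Members were spread over the fish very unevenly. In the libraries of R1 to R3, 81, 50 and 45 members had 10 or more reads, and in P1 to P3 there were 71, 54 and 48. All 6 fish shared 23 members, and these held 91.1%, 91.4% and 87.9% of the pooled member reads of R1 to R3 and 97.7%, 75.8% and 91.2% of those of P1 to P3. Another 18 were found in 5 fish, 9 in 4, 10 in 3 and 18 in 2, and 19 in a single fish. Both injections held 75 of the members, 9 were found in Cas9 RNA fish only and 13 among protein-injected fish only. None was found in all 3 fish of one injection and in no fish of the other. Of the 4273 scars as a whole, 121 were found in all 6 fish. How all scars otherwise divide between the fish and the injections was not counted, so these counts are not read as particular to the members. The fish also differed in libraries and in scarred reads, and whether the counts follow these was not tested. With the limit of 10 reads lowered to a single read, 526 of the 582 combinations of a member and a fish had reads.

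Members of a single fish had at most 1317 reads in a library. Fish R1 had 8 of them, P1 2, P2 3 and P3 6, and R2 and R3 had none. R2 and R3 also had the fewest libraries, 13 and 14, and the fewest scarred reads, 1221515 and 2334190. Whether the counts follow from this was not tested. How many of all 4273 scars were found in a single fish was not counted. The most abundant of R1 was an 11-bp deletion from 547 to 557, with 10 or more reads in 5 of 31 libraries. Its highest library, barcode 3, had 1.13% (interval 1.06% to 1.21%), and no other fish except P1, with 4 reads, had a read. In P1 the 7-bp deletion from 549 to 555 had 698 of its 738 reads in barcode 3 (0.379%, interval 0.352% to 0.408%). In P2 the 8-bp deletion from 514 to 521 had 83.7% of its 1206 reads in barcode 7 (0.422%, interval 0.397% to 0.449%). In P3 the 12-bp deletion from 541 to 552 had 93.8% of its 1404 reads in barcode 13 (0.185%, interval 0.175% to 0.195%). The deletion of R1 had 961 of its 1342 reads over all fish in barcode 3. Each of these deletions thus had most of its reads in 1 library. In the other fish they had at most 16 reads in a fish.

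Within a fish, few members reached all libraries. Those with 10 or more reads in every library numbered 5, 3 and 8 in R1 to R3 and 6, 5 and 2 in P1 to P3. Those found in a single library numbered 8, 15 and 9 in R1 to R3 and 14, 11 and 12 in P1 to P3. A library of R1 held 32.5 ± 11.6 members on average. The means were 17.8 ± 8.80 in R2, 21.8 ± 8.29 in R3, 28.7 ± 8.99 in P1, 18.9 ± 6.04 in P2 and 13.6 ± 7.02 in P3. Between injections it was 24.03 ± 7.64 among RNA-injected fish and 20.4 ± 7.65 among protein-injected fish (SD, n = 3 each; exact permutation test over fish, two-sided, p = 0.60, adjusted over 4 comparisons 0.70). Without R1 the difference of 3.67 became -0.585. Depth differed between these libraries. The expected number of members with at least 1 read was also taken for 2500 reads per library, unscarred GFP included. It was 18.8, 9.01 and 13.9 in R1 to R3 and 13.3, 10.4 and 7.78 in P1 to P3. Scarred reads were not made equal in this way, and in R2 they were few (1221515 of 8768335 reads). Despite these numbers of members, 5 members held between 70.2% (R2) and 88.2% (P1) of the member reads of a fish. The most abundant member of a library averaged 32.7%, 48.5% and 42.6% of its member reads in R1 to R3 and 52.8%, 53.2% and 53.4% in P1 to P3.

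The limit of 10 reads left out 62 further deletions of these lengths and positions, which together had 1338 reads, against 6875185 reads of the members. Just inside it, the 8-bp deletion from 525 to 532 had 10 reads in barcode 12 of P3. Just outside, the 12-bp deletion from 521 to 532 had 9 reads in barcode 15 of R1, and the 10-bp deletion from 527 to 536 had 9 reads in barcode 14 of P3. No deletion of these lengths with 10 or more reads missed the window. Many members lay next to a far more abundant deletion. With the start and the end each moved by at most 1 bp, a single deletion with at least 10 times as many reads in the same fish was found for 44 of 81, 25 of 50 and 20 of 45 members of R1 to R3 and for 36 of 71, 24 of 54 and 21 of 48 of P1 to P3. Such neighbours held 5.48%, 13.8% and 9.45% of member reads in R1 to R3 and 2.09%, 8.32% and 5.74% in P1 to P3. Whether PCR, sequencing or alignment errors give rise to them was not tested.

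The 23 members found in all 6 fish were compared one by one between the injections. In 2 of them (8.70%), the 3 Cas9 RNA fish all lay above the 3 Cas9 protein fish. Among all 121 scars found in all 6 fish, 25 did so, which is 20.7%. None of the 23 had all Cas9 RNA fish below all Cas9 protein fish, against 1 of the 121 (0.826%). With medians in place of means these were 3 of 23 (13%) against 19 of 121 (15.7%), and with pooled reads 3 of 23 against 21 of 121 (17.4%). The members thus gave no more such cases than the shared scars as a whole, whether the shares differ was not tested, and no single scar can pass a test with 3 fish against 3. One of the pair was the 9-bp deletion from 535 to 543 described above, with 1.79% of scarred reads among RNA-injected fish and 0.126% among protein-injected fish. The other was an 11-bp deletion from 534 to 544. It had 0.489%, 0.433% and 0.110% in R1 to R3, against 0.0794%, 0.0122% and 0.00852% in P1 to P3. Both its ends lie 1 bp to the left of the leading deletion from 535 to 545, which was far more abundant. The latter averaged 3.96%, 6.85% and 4.51% in R1 to R3 and 14.7%, 1.13% and 2.07% in P1 to P3. Whether errors in reads of the leading deletion gave rise to it was not tested. The leading deletion from 535 to 545 overlapped between the injections, with 5.10% among RNA-injected fish and 5.97% among protein-injected fish.

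In comparison with the shorter and longer single deletions of the same window, no tested difference of the members passed 0.05 after adjustment. The comparison used 72 deletions of 3 to 6 bp and 168 of 13 to 24 bp, measured in the same libraries and paired within each fish. The most abundant scar of a library held 47.2% of the reads of the members and 61.4% of those of the deletions of 3 to 6 bp, a difference of -14.2 ± 6.52 percentage points that was negative in 6 of 6 fish (SD, n = 6; exact sign-flip permutation test, two-sided, p = 0.03125, adjusted over 7 comparisons 0.0729). This is the smallest p that 6 pairs allow, and it did not pass after adjustment. Against 13 to 24 bp, with 45.1%, the difference was 2.14 ± 10.6 (same test, exact, p = 0.656). The 3 classes differ in the number of scars and in reads.

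The variation between the libraries of a fish was compared in the same way. The coefficient of variation of the share, the SD over the mean, averaged 0.495 for the members and 0.291 for the deletions of 3 to 6 bp, and was higher for the members in 6 of 6 fish (exact sign-flip permutation test, two-sided, p = 0.03125, adjusted over 7 comparisons 0.0729). The difference was largest in P3, with 0.862 and 0.341, and smallest in R3, with 0.266 and 0.246. The mean share, by which the SD is divided, was larger for the deletions of 3 to 6 bp in every fish except R2. In P3 it was 23.9%, against 5.16% for the members. A higher coefficient is thus not a larger SD, and the SDs themselves were not compared between the classes. For 13 to 24 bp the coefficient was 0.426 (same test, exact, p = 0.469). The centre of the members lay at position 540.964 on average, weighted by reads, against 542.857 for 3 to 6 bp, which is 1.89 ± 0.934 bp further left and in the same direction in 6 of 6 fish (same test, exact, p = 0.03125, adjusted 0.0729). Against 13 to 24 bp, with 540.506, it was 0.458 ± 0.374 bp further right in 5 of 6 fish (same test, exact, p = 0.0938, adjusted 0.131).

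Averaged over the fish, the most frequent boundaries of the neighbouring classes lay at other positions, which was not tested. The lengths of the classes fix a part of this. No deletion of these classes can run from 535 to 545, which is 11 bp, and one of 3 to 6 bp from 535 cannot reach position 542. Of the reads of deletions of 3 to 6 bp, 68.4% ± 5.67 began at position 542 and 59.6% ± 5.92 ended at 547 (SD, n = 6), while a start at 535 had 0.451%. Of those of 13 to 24 bp, 39.7% ± 18.9 began at 532 and 30.7% ± 24.2 ended at 549, and a start at 535 had 3.50%. The end at 545, which 49.99% of member reads shared, had 11.2% in the shorter and 5.22% in the longer class. In P2, however, the end at 547 led among the members, with 43.2%, and in the shorter class, with 53.7%. In frame were 34.1% of the member reads and 63.1% of those of 13 to 24 bp, a difference of -29.0 ± 18.5 percentage points that was negative in 5 of 6 fish (exact sign-flip permutation test, two-sided, p = 0.0625, adjusted over 7 comparisons 0.109). Fish R1 was the exception, with 61.6% and 58.9%. The most abundant scar of a library alone held 47.2% and 45.1% of these reads on average. The in-frame share of reads therefore depends strongly on the lengths of a few scars. Multiples of 3 make up an equal part of the lengths in these classes. They make up a larger part of the lengths from 3 to 6 bp. Of the reads of that class, from 79.5% (P3) to 94.8% (R3) were in frame, above the members in every fish, which was not tested.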

How the data were processed

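For each fish, the authors amplified GFP from genomic DNA with barcoded primers, sequenced the products, aligned the reads with BWA (0.7.16a in the submitters' processing notes) and deposited a table of read counts per alignment string and barcode, which holds raw whole numbers. The filters on scars that the methods describe were not applied here. Fish were grouped by the injection in the labels. Of 372 barcodes, 130 reached 1000 reads and served as libraries, and technical replicas were not summed. Alignment strings with 1 deletion and no insertion were turned into start, end and length. Members were chosen with earlier results of these data known, and the limits on reads, length and position were given with them. Named deletions are the most abundant of each length, of each fish and of those in 1 fish only, by mean share, and those next to the limit of 10 reads, and any other deletion was named after its values were seen. Fish were compared with exact permutation tests over 20 assignments, and classes with exact sign-flip tests over 64, with Benjamini-Hochberg adjustment over 4 and 7 comparisons and a threshold of 0.05. The p-values rest on rearranging the values of these 6 fish, 3 in each injection, and do not reach beyond them. Alternatives were other limits on reads, no window, medians, pooled reads, no 1-bp neighbours, counts under 10 set to 0, libraries with 100000 reads, all barcodes, shares of all reads and each fish left out. The selection of members, their share of scarred reads and the permutation p of that share between injections were checked on simulated data. There, all libraries of a fish had the same planted share. Other steps were not checked in this way. Python 3.11.15, NumPy 2.4.6, pandas 2.3.3 and SciPy 1.17.1 were used.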

Additional observations from a re-analysis of the deposited data

Results flagged for a closer look

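The 242 barcodes below 1000 reads entered no comparison outside the setting with all barcodes. Members were found in them above the limit that a count of 0 allows. Pooled over these barcodes, members held 18.1% of 83 scarred reads in fish R1 (95% Wilson interval 11.3% to 27.7%), 22.9% of 109 in fish R2 (16.05% to 31.7%) and 15.6% of 781 in fish R3 (13.2% to 18.3%). They held 25.6% of 630 in fish P1 (22.3% to 29.1%), 18.2% of 445 in fish P2 (14.9% to 22.1%) and 8.58% of 373 in fish P3 (6.14% to 11.9%). Where these reads came from was not tested.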

How the results depend on the processing

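Differences are Cas9 RNA minus Cas9 protein, or members minus the other class. The share of scarred reads (2.98) reversed to -1.75 as a share of all reads and lay between -2.00 (without P3) and 8.89 when single fish were left out. Likewise the in-frame share lay between -1.66 (without R1) and 19.1, the members per library between -0.585 (without R1) and 7.82 and the mean length between 0.0852 and 0.620. Against 3 to 6 bp the top scar lay between -15.4 and -12.2, the centre between -2.15 and -1.72 and the coefficient of variation between 0.142 and 0.242. Against 13 to 24 bp the in-frame share lay between -35.3 and -25.5 and the centre between 0.390 and 0.553. The coefficient of variation against 13 to 24 bp (0.0694) reversed to -0.0437 with all barcodes, and the share of the top scar against 13 to 24 bp (2.14) to -0.762 with pooled reads. Over the fish left out they lay between 0.00483 and 0.117 and between -1.16 and 4.81. No comparison passed 0.05 after adjustment under any setting, and with 5 pairs none can pass. With the number in the fish name as a replicate block, the difference in share stayed 2.98 and p lay between 0.50 and 0.75 over the 4 comparisons. Same-numbered fish did not deviate together (correlations from -0.106 to -0.0365). With so few pairs this cannot settle whether the numbers pair anything. With medians, added after the data were seen, the deletions from 539 to 545 and from 539 to 546 had 0.0411% and 0.0234% of scarred reads, against means of 0.231% and 0.228%. The members whose Cas9 RNA fish lay above all Cas9 protein fish numbered 3 of 23 with medians and 3 of 23 with pooled reads, against 19 (15.7%) and 21 (17.4%) of all 121 shared scars. With a limit of 100 reads, 71 members remained.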
